A study of Mus musculus with 4 samples.

Results

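Transcripts of 8 colony-stimulating factor (CSF) genes were examined in mouse lungs carrying metastases of 4T1, a mouse triple-negative breast cancer line. The genes were 4 ligands (Csf1, Csf2, Csf3 and Il34) and 4 receptor chains (Csf1r, Csf2ra, Csf2rb and Csf2rb2), chosen by gene name among the 56748 genes of the count table. The question addressed was whether lungs treated with the combined therapy differed in this signaling family from control lungs. No member passed the test in either direction, and none of the 15320 genes tested did. The ligand gene Csf1 and its receptor gene Csf1r had log2 fold changes (log2FC, ADC/cmLumiOpto over saline) of 0.011 and -0.042, and the samples of each gene's groups overlapped. Il34 lay higher and Csf3 lower in both treated samples without passing the test. Of all genes tested, 57% likewise had groups that did not overlap. The gene for the Csf3 receptor, Csf3r, was far higher in 1 treated sample than in the other 3.

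All mice were female BALB/cJ, 7 weeks old when luciferase-expressing 4T1 cells were injected through the tail vein. The 2 control samples came from mice given saline, which the labels call a PBS control. The 2 ADC/cmLumiOpto samples came from mice given an antibody-drug conjugate (an anti-CD276 antibody carrying the microtubule inhibitor mertansine, DM1) together with cmLumiOpto, an exosome-packaged viral vector that depolarizes cancer mitochondria when its luminescent substrate is supplied. The labels give 16 mg/kg of conjugate and add the abbreviation Olap, whereas the methods give 8 mg/kg and name no such agent, so the treatment is reported under the group name only. The series text gives 3 weeks of treatment. The labels describe tumor cells from lung, whereas the methods describe dissociated lung tissue. The methods give 4 samples per group, whereas the series holds 2 per group, all of which were analyzed here.

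The libraries held 15263375 to 19675436 counts each, and a floor of 3 counts corresponded to between 0.152 and 0.197 CPM (counts scaled to a library of 1000000), for counting error only. Markers of lung epithelium were present in every sample, next to 10 markers listed for carcinoma epithelium, led by Krt8. These summed to 3544 and 3866 CPM with saline and 3275 and 3210 CPM with ADC/cmLumiOpto. Of the 10, 5 were lower and 2 higher without overlap (28.8% and 28.1% of all genes). Whether this list separates carcinoma from lung epithelium was not tested. The 9 alveolar type 2 markers, led by Sftpc, summed to 1806 and 539 CPM with saline and 5839 and 5056 CPM with ADC/cmLumiOpto. Of the 9, 7 were higher without overlap and 2, Abca3 and Etv5, lower (28.1% and 28.8% of all genes). The 6 alveolar type 1 markers summed to 375 and 221 CPM against 797 and 812 CPM. In such bulk samples, fewer cells of a type and less RNA per cell cannot be told apart. Mitochondrial transcripts made up 1.13% and 1.17% of counts with saline and 2.09% and 1.84% with ADC/cmLumiOpto, and the part of this difference in the results was not tested.

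CSFs are secreted proteins that keep myeloid cells alive and make them proliferate and mature. Csf1 (M-CSF) and Il34 (interleukin-34) are separate ligands of 1 receptor tyrosine kinase, Csf1r, which marks monocytes and macrophages. Csf2 (GM-CSF) binds a specific α chain, Csf2ra, that signals with the shared β chain Csf2rb through JAK2 and STAT5, and in the lung this pathway is needed for alveolar macrophages to mature. Mice carry an additional β chain, Csf2rb2, which serves interleukin-3. Csf3 (G-CSF) drives neutrophil production through Csf3r, and 4T1 tumors are known for secreting it and for the neutrophil expansion that follows.

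Csf2rb and Csf2rb2 are neighbors on chromosome 15 and near-identical copies, which bears on how reads could be assigned to them. In GENCODE transcripts of GRCm38, 95.4% of 2629 aligned coding bases were identical, and the longest identical stretch was 242 bases. Of all stretches of 150 bases in a Csf2rb transcript, 3.58% occurred unchanged in Csf2rb2. The stretches below, 60 coding bases written 5′ to 3′ with differing bases in capitals, show the first bases of the longest shared run with the differing base before it (coding bases 2082 to 2141 in both genes) and the stretch with the most differences, 13 (coding bases 304 to 363 of Csf2rb and 307 to 366 of Csf2rb2).
Csf2rb, shared run: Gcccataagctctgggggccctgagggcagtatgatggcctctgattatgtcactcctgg
Csf2rb2, shared run: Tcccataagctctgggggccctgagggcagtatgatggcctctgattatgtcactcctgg
Csf2rb, most different: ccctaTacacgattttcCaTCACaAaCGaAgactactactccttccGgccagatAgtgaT
Csf2rb2, most different: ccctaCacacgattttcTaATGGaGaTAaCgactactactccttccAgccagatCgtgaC
Reads from the first pair cannot separate the genes unless they reach a differing base, whereas reads from the second pair can. The values of both genes are therefore uncertain to the extent that shared reads were split or dropped by the counting, whose program is not given in the sources used here.

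All 8 members passed edgeR's expression filter and were tested among 15320 genes. With edgeR's quasi-likelihood test and Benjamini-Hochberg adjustment over all genes, 0 of 8 members had an adjusted p under 0.05, and 0% of all genes did. At an unadjusted p under 0.05 there were 0 members, against 23.2% of all genes (3553). The number of members called was also 0 in the edgeR exact test (7.64% of all genes, 1170), in DESeq2 (8.32%, 1178), without the expression filter (8.84%) and with the replicate number as a block (3.96%). Of the members, 4 had a log2FC above 0 and 4 below 0, and their median was -0.015 beside 0.028 for all genes tested. The groups did not overlap for 2 members (57% of all genes), 1 higher (28.1% of all genes) and 1 lower (28.8% of all genes).

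**Figure D1:**
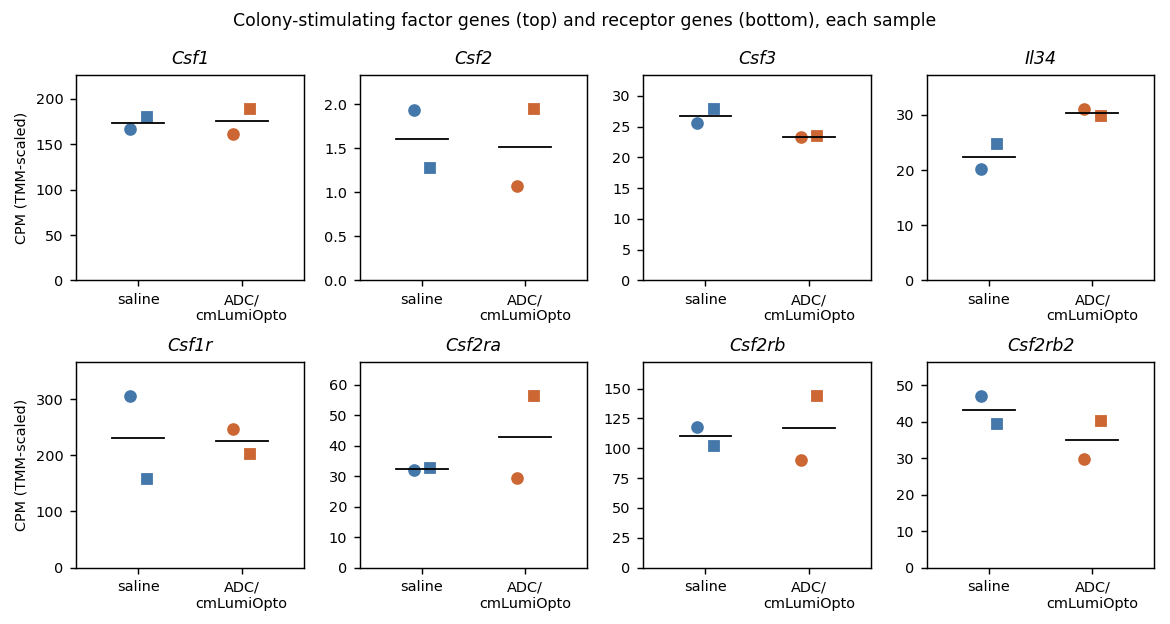
CPM of each CSF ligand gene (top row) and receptor gene (bottom row) in the 2 saline samples (blue) and the 2 ADC/cmLumiOpto samples (orange). Circles are replicate 1, squares replicate 2, lines are group means, and every axis starts at 0; only Il34 (higher) and Csf3 (lower) have groups that do not overlap.

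The ligand Csf1 (ENSMUSG00000014599, chr3:107648364-107667785, minus strand) was measured at 167 and 180 CPM in saline replicates 1 and 2 and at 161 and 189 CPM in ADC/cmLumiOpto replicates 1 and 2. Both the lowest and the highest value belonged to treated samples, so the saline values lay within the treated range. The means were 174 ± 9.25 CPM (SD, n = 2) and 175 ± 19.6 CPM (SD, n = 2), a log2FC of 0.011 (standard error, SE, 0.17, 95% interval -0.39 to 0.41, adjusted p = 0.977 in edgeR).

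The alternative ligand of the same receptor, Il34 (ENSMUSG00000031750, chr8:111468461-111532556, minus strand), had 323 and 367 counts with saline and 549 and 610 with ADC/cmLumiOpto. Scaled to library size these were 20.2 and 24.7 CPM against 31.1 and 29.7 CPM, and both treated samples lay above both saline samples. The log2FC was 0.44 (SE 0.20, 95% interval -0.033 to 0.91), with an adjusted p of 0.239 in edgeR, the smallest among the 8 members. Leaving out any 1 sample gave 0.29 to 0.59, and the value was 0.21 once the trend of fold changes on gene length was removed. Il34 overlaps a pair of long noncoding RNA genes on the opposite strand, which had at most 12 counts in any sample. The sums of alveolar type 1 and type 2 markers were likewise higher in both treated samples, and their part in the level of Il34 was not tested.

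Csf3 (ENSMUSG00000038067, chr11:98592089-98594455, plus strand), the neutrophil growth factor, had 409 and 414 counts with saline and 412 and 481 with ADC/cmLumiOpto. In CPM the saline samples were at 25.6 and 27.9 and the treated samples at 23.3 and 23.5, so the treated pair, nearly equal, was below the saline pair. The log2FC was -0.19 (SE 0.18, 95% interval -0.63 to 0.25, adjusted p = 0.560 in edgeR). Removing the length trend gave -0.48 (unadjusted p = 0.0382, adjusted p = 0.229 in edgeR). ADC/cmLumiOpto replicate 2, the sample with the most neutrophil transcripts, was thus close to the other treated sample in Csf3.

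Csf2 (ENSMUSG00000018916, chr11:54138097-54140493, minus strand) was the scarcest member, with 31 and 19 counts with saline and 19 and 40 with ADC/cmLumiOpto. In CPM these were 1.94 and 1.28 against 1.08 and 1.95, so that each group held a higher and a lower sample and the groups overlapped. Its log2FC of -0.085 had a SE of 0.55 and a 95% interval from -1.41 to 1.24 (adjusted p = 0.944 in edgeR). A change inside that range is therefore not excluded. The noncoding gene Gm12223 covers most of Csf2 on the opposite strand, with 3, 6, 1 and 8 counts, and whether the libraries and the counting used strand is not given in the sources used here. Beside Csf2, the listed alveolar macrophage markers had log2FCs of both signs, and whether they depend on Csf2 was not tested. Of 10 such markers, 8 were tested, of which 5 had a log2FC above 0 and 3 below 0. Without overlap, 2 were higher, Ear1 and Ear2, and 0 lower (28.1% and 28.8% of all genes). The summed level of all 10 was 252 and 596 CPM with saline and 229 and 308 CPM with ADC/cmLumiOpto, with Chil3 the most abundant. Marco, a defining scavenger receptor, was at no more than 14 counts. Krt79 was at 0 in at least 1 sample. Chil3 is also expressed by neutrophils and monocytes, and the part of any cell type in the values of Csf2 was not tested.

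**Figure D2:**
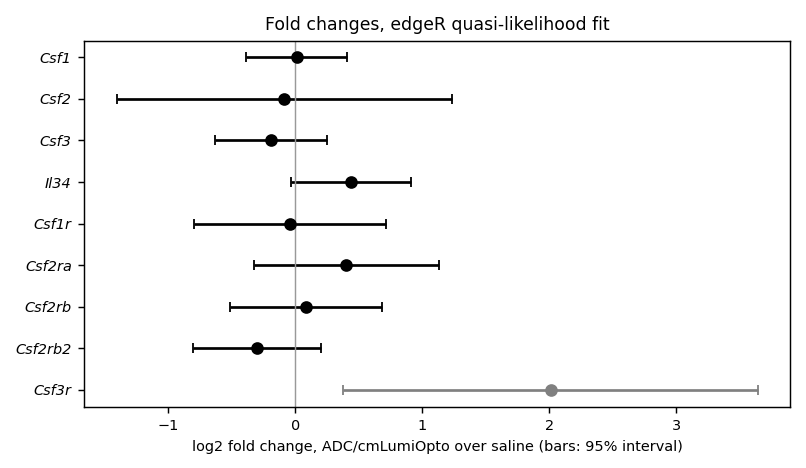
Log2 fold changes of ADC/cmLumiOpto over saline from edgeR's quasi-likelihood fit (points) with 95% intervals (bars) for the 8 members (black) and Csf3r (gray). All 8 member intervals include 0, and that of Csf2, with 19 to 40 counts per sample, is the widest among them; the interval of Csf3r, from 0.37 to 3.64, leaves out 0 although its adjusted p was 0.162.

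Csf1r (ENSMUSG00000024621, chr18:61233670-61265221, plus strand) encodes the receptor of Csf1 and Il34. Its levels were 305 and 157 CPM with saline and 247 and 202 CPM with ADC/cmLumiOpto. The saline samples alone differed 1.94-fold, and both treated samples fell inside that gap. The log2FC was -0.042 (SE 0.31, 95% interval -0.79 to 0.71, adjusted p = 0.951 in edgeR), and it took either sign depending on the saline sample used, 0.50 without saline replicate 1 and -0.44 without saline replicate 2. It overlaps Hmgxb3, a gene on the opposite strand with 449 to 574 counts, over 873 bases, and reads from the overlap cannot be told apart without strand.

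Macrophage and monocyte markers did not follow Csf1r in all samples. Of 14 such markers, all tested, 11 had a log2FC above 0 and 3 below 0, with 4 higher and 2 lower without overlap (28.1% and 28.8% of all genes). Their summed level was 3451 and 2686 CPM with saline and 6612 and 4116 CPM with ADC/cmLumiOpto, and Lyz2, the most abundant, also marks neutrophils and alveolar type 2 cells. Per 1000 CPM of these markers, Csf1r was at 88.5 and 58.5 CPM with saline and 37.4 and 49.0 CPM with ADC/cmLumiOpto, lower in both treated samples (exact permutation test, two-sided p = 0.3333, the smallest 2 against 2 samples can give). With Lyz2 left out, an alternative added after the data were seen, the marker sums overlapped, at 1764 and 1558 CPM against 2313 and 1669 CPM. Csf1r per 1000 CPM of the remaining markers was then at 173 and 101 CPM against 107 and 121 CPM, which also overlapped. Relative to Adgre1, which encodes the macrophage antigen F4/80, the order was not kept, with 6.57 and 4.41 with saline and 3.64 and 5.73 with ADC/cmLumiOpto. No marker of this list was at 0 in any sample. The monocyte receptor gene Ccr2 was at 49.9 and 7.68 CPM with saline and 98.3 and 79.0 CPM with ADC/cmLumiOpto. The resident macrophage scavenger receptor Cd163 was at 13.1 and 54.1 CPM against 3.40 and 8.48 CPM. Neither passed the test (adjusted p = 0.237 and 0.135 in edgeR). Among other markers of the list, Mrc1 was also lower without overlap, whereas the groups overlapped for Ly6c2, Cx3cr1 and Mertk. The part of these populations in the level of Csf1r was not tested.

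The GM-CSF receptor α chain gene Csf2ra (ENSMUSG00000059326, chr19:61212395-61216867, minus strand) was at 32.1 and 32.9 CPM with saline and at 29.5 and 56.3 CPM with ADC/cmLumiOpto. The other samples were close together and ADC/cmLumiOpto replicate 2 stood above them, so the groups overlapped. The log2FC was 0.40 (SE 0.30, 95% interval -0.33 to 1.13, adjusted p = 0.459 in edgeR). It turned to -0.15 without that sample and was 0.79 without ADC/cmLumiOpto replicate 1.

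The shared β chain gene Csf2rb (ENSMUSG00000071713, chr15:78209952-78238047, plus strand) was at 118 and 102 CPM in the saline group and 89.9 and 144 CPM in the treated group. As for Csf2ra, ADC/cmLumiOpto replicate 1 held the lowest value and replicate 2 the highest. Its log2FC was 0.087 (SE 0.25, 95% interval -0.51 to 0.68, adjusted p = 0.863 in edgeR), and -0.30 without ADC/cmLumiOpto replicate 2. For its copy Csf2rb2 (ENSMUSG00000071714, chr15:78166707-78189921, minus strand) the values were 47.1 and 39.4 CPM with saline and 29.8 and 40.3 CPM with ADC/cmLumiOpto. ADC/cmLumiOpto replicate 2 lay between the saline samples and replicate 1 below them, with a log2FC of -0.30 (SE 0.21, 95% interval -0.81 to 0.20, adjusted p = 0.419 in edgeR). With the counts of both copies summed, the log2FC was -0.013 (adjusted p = 0.982 in edgeR).

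**Figure D3:**
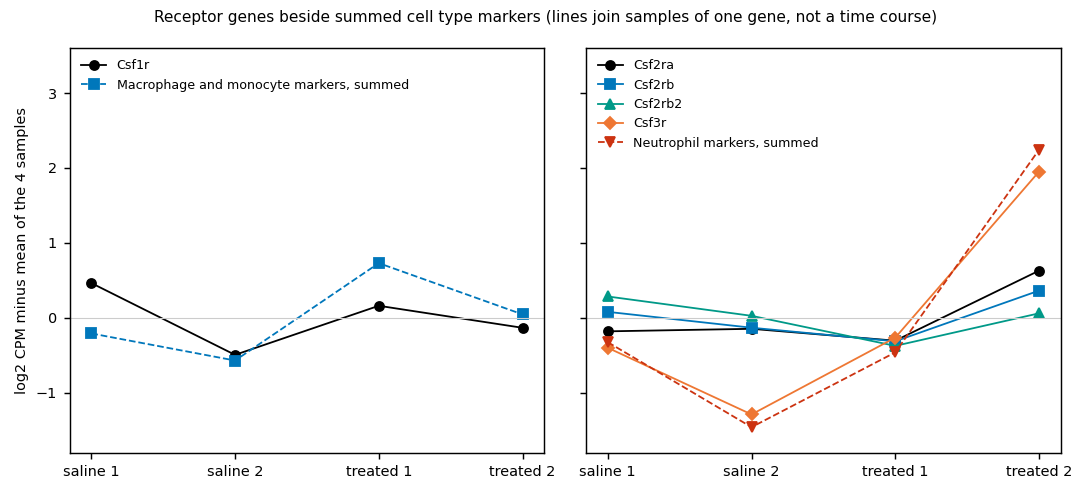
Log2 CPM in each sample minus the mean of the 4 samples, for Csf1r with summed macrophage and monocyte markers (left) and for Csf2ra, Csf2rb, Csf2rb2 and Csf3r with summed neutrophil markers (right). Solid lines are genes, dashed lines are marker sums, and treated stands for ADC/cmLumiOpto; Csf3r and the neutrophil sum peak together in treated 2, at 1.95 and 2.24, where Csf2ra (0.63) and Csf2rb (0.36) are also at their highest.

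Neutrophil transcripts separated ADC/cmLumiOpto replicate 2 from the other samples. The 12 neutrophil markers, all tested and none at 0, summed to 1550 and 707 CPM with saline and to 1411 and 9193 CPM with ADC/cmLumiOpto, led by S100a9. All 12 had log2FCs above 0, and 4 of 12 were higher without overlap (28.1% of all genes). The receptor gene Csf3r (ENSMUSG00000028859), not a member but the receptor of the Csf3 protein, was at 45.8 and 24.7 CPM with saline and at 50.3 and 234 CPM with ADC/cmLumiOpto. Its log2FC was 2.01 (SE 0.68, adjusted p = 0.162 in edgeR) and dropped to 0.51 (adjusted p = 0.441 in edgeR) without ADC/cmLumiOpto replicate 2. In the edgeR exact test its adjusted p was 0.0471, and in DESeq2 0.219. The part of neutrophil abundance in the values of Csf2ra and Csf2rb, which neutrophils also express, was not tested. Without the sample in question both members lay lower in the remaining treated sample than in either saline sample.

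Levels were compared between genes as RPKM (CPM per kilobase of gene length), with the gene length listed in the table. In the saline samples the order was Csf1r (40.0 ± 18.1 RPKM, SD, n = 2), Csf1 (32.9 ± 1.75), Csf3 (18.9 ± 1.17), Csf2rb (15.1 ± 1.57), Il34 (11.5 ± 1.64), Csf2ra (11.3 ± 0.187), Csf2rb2 (9.12 ± 1.15) and Csf2 (2.01 ± 0.581). Csf1r could not be placed above Csf1, nor Il34 above Csf2ra, since their sample values overlapped, and the other neighbors were apart. The treated samples gave the same order of group means, from Csf1r at 38.9 ± 5.58 RPKM to Csf2 at 1.89 ± 0.772 RPKM (SD, n = 2). There Csf1r again overlapped with Csf1. The 4 genes from Csf3 to Csf2ra, at 16.6, 16.1, 15.5 and 14.9 RPKM, each overlapped with the next among them. The other neighbors were apart.

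Ratios within a sample do not depend on library size, but they were not adjusted for the trend of fold changes on gene length. Il34 amounted to 0.325 and 0.370 of the Csf1 level with saline and 0.520 and 0.424 with ADC/cmLumiOpto (in RPKM), higher in both treated samples. With the length trend removed, the log2FC moved from 0.44 to 0.21 for Il34 and from 0.011 to 0.089 for Csf1. Whether this ratio keeps its order then was not tested. Both ligands together were at 0.794 and 1.72 times the level of Csf1r with saline and at 1.08 and 1.46 times with ADC/cmLumiOpto, an overlapping range. The ratio of Csf2rb2 to Csf2rb was 0.612 and 0.593 with saline and 0.509 and 0.430 with ADC/cmLumiOpto. The ratio of Csf3 to Csf2 was 7.47 and 12.3 with saline and 12.3 and 6.81 with ADC/cmLumiOpto, again overlapping. The α chain Csf2ra stood at 0.428 and 0.513 of both β chains with saline and at 0.550 and 0.695 with ADC/cmLumiOpto. Of these 5 ratios, 3 had groups that did not overlap, each with a two-sided p of 0.3333 in the exact permutation test.

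Genes around the family were described in 5 lists, in which 0 genes had an adjusted p under 0.05 in edgeR's quasi-likelihood test. Of 19 genes that transmit the signal of Csf1r, 5 were higher and 3 lower at an unadjusted p under 0.05, beside 11% and 12.2% of all genes, and the median log2FC was 0.30, or 0.039 without ADC/cmLumiOpto replicate 2. Tyrobp (DAP12), an adaptor of myeloid receptors, was at 73.1 and 60.6 CPM with saline and 127 and 147 CPM with ADC/cmLumiOpto, a log2FC of 1.04 (SE 0.18). Its adjusted p was 0.116 in edgeR and 0.00187 in the exact test. The guanine nucleotide exchange factor Sos1, found in most cell types, was at 62.8 and 51.2 CPM against 33.5 and 36.2 CPM, with a log2FC of -0.71 (adjusted p = 0.123 in edgeR, 0.0434 in the exact test). The macrophage marker sum given above was higher in both treated samples with Lyz2 and overlapped without it, and its part in Tyrobp was not tested.

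For β chain and JAK-STAT5 signaling, 1 of 15 genes was higher and 2 were lower at an unadjusted p under 0.05 (11% and 12.2% of all genes). The median log2FC was 0.045, or -0.19 without ADC/cmLumiOpto replicate 2 and -0.043 without saline replicate 2. Jak2, the kinase bound to the β chain, was at 421 and 375 CPM with saline and 295 and 309 CPM with ADC/cmLumiOpto (log2FC -0.40, adjusted p = 0.200 in edgeR, 0.273 in the exact test). Stat3 had a log2FC of -0.50 (adjusted p = 0.196 in edgeR, 0.213 in the exact test), and Id1, which encodes an inhibitor of DNA binding, of 0.66 (adjusted p = 0.146 in edgeR, 0.0950 in the exact test). The usual target of STAT5, Cish, was at 25.4 and 18.1 CPM against 22.3 and 19.2 CPM, an overlapping range, and was named after its values were seen.

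Among 13 further ligands and receptors of these families, 9 passed the expression filter, with 2 higher and 3 lower at an unadjusted p under 0.05 (11% and 12.2% of all genes). The platelet-derived growth factor receptors, relatives of Csf1r that mark mesenchymal cells, lay lower, with log2FCs of -0.81 for Pdgfra (adjusted p = 0.116 in edgeR, 0.0168 in the exact test) and -0.58 for Pdgfrb (adjusted p = 0.169 in edgeR, 0.147 in the exact test). Of 11 fibroblast and mural cell markers, among them both of these genes, 8 were lower without overlap (28.8% of all genes). The marker Rgs5 was higher without overlap (28.1% of all genes), at 7.69 and 4.45 CPM against 10.9 and 16.2 CPM. The summed level, led by Col1a1, was 5299 and 3711 CPM with saline and 1879 and 1541 CPM with ADC/cmLumiOpto. The other ligands that use the β chains were almost undetected. Il3 had 1 count in 1 treated sample, and Il5 and its receptor chain Il5ra had 0 counts in every sample, which allows up to 3 counts in each.

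Of 15 transcription factors known to act on myeloid CSF receptor genes, 2 were higher and 1 was lower at an unadjusted p under 0.05 (11% and 12.2% of all genes). The median log2FC was -0.13, and it was above 0 without saline replicate 1 (0.043) or ADC/cmLumiOpto replicate 1 (0.036). Spi1 (PU.1), the master regulator of the Csf1r and Csf2ra genes, was at 69.9 and 52.1 CPM with saline and 83.2 and 151 CPM with ADC/cmLumiOpto. Its log2FC was 0.94 (adjusted p = 0.155 in edgeR, 0.0702 in the exact test and 0.0253 in DESeq2), and 0.44 without ADC/cmLumiOpto replicate 2. Runx1, also needed for expression of Csf1r in blood cells, was at 179 and 198 CPM against 79.3 and 98.4 CPM, a log2FC of -1.08 (adjusted p = 0.116 in edgeR, 9.48e-04 in the exact test). Gfi1, a repressor that promotes the neutrophil fate, had 4 and 2 counts with saline and 18 and 13 with ADC/cmLumiOpto (log2FC 2.05, adjusted p = 0.179 in edgeR, 0.122 in the exact test).

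Known inducers of CSF genes gave 2 higher and 1 lower of 15 tested at an unadjusted p under 0.05 (11% and 12.2% of all genes). The median log2FC was -0.18, with values of -0.11 and -0.33 without ADC/cmLumiOpto replicates 1 and 2 and of 0.072 with the trend on gene length removed. Il1b, which induces Csf2 and Csf3 in stromal cells, was at 24.3 and 13.3 CPM with saline and 40.7 and 39.7 CPM with ADC/cmLumiOpto (log2FC 1.10, adjusted p = 0.1246 in edgeR, 0.0252 in the exact test). The alarmin Il33 was at 99.8 and 133 CPM against 49.9 and 40.5 CPM (log2FC -1.36, adjusted p = 0.116 in edgeR, 9.84e-05 in the exact test). Tlr2, a sensor of bacterial lipoproteins, had a log2FC of 0.67 (adjusted p = 0.170 in edgeR, 0.123 in the exact test). Il17a, an inducer of Csf3, had 1 count in all 4 samples together.

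**Figure D4:**
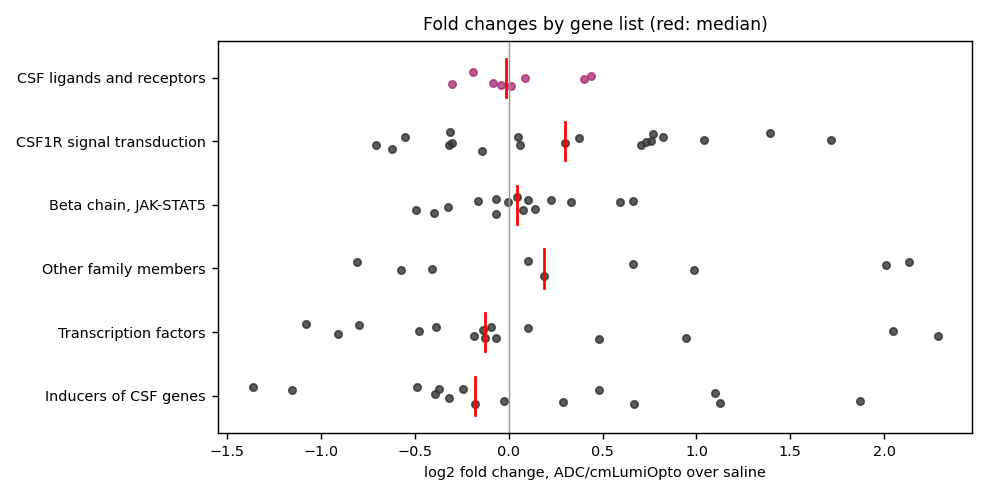
Log2 fold changes of ADC/cmLumiOpto over saline for the 8 members (purple) and the tested genes of the 5 lists around them (black), 1 point per gene with random vertical offset; red lines are medians. The members lie between -0.30 and 0.44, while list genes reach from -1.36 (Il33) to 2.29 (Cebpe).

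Genes whose pattern over the 4 samples was closest to Csf1 and Csf1r were sought among 9656 named protein-coding genes with a mean of at least 10 CPM, by the root mean square difference of centered log2 CPM. Closest to Csf1 were Cyp39a1 (0.014), Ppp1r15b (0.014) and Gsk3a (0.020), and 593 genes lay within 0.1 of it. Among those closest to Csf1r were Men1 (0.067) and Tmem97 (0.080), and 8 genes lay within 0.1. With 4 samples such likeness is a description of level in these libraries only.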

How the data were processed

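Poly-A RNA of 2 saline and 2 ADC/cmLumiOpto samples was sequenced on an Illumina instrument. Values in the deposited table are gene counts that the authors did not normalize, made after alignment with HISAT2. The counting program is not given in the sources used here. The methods name GRCm38, whereas the submitters' processing notes list mm39 with HISAT2, HISAT and TopHat2. Positions are printed as the table lists them. They differed from GENCODE M21 of GRCm38 for all 8 members (1472 of 52073 shared identifiers had the same start and end). No mm39 annotation was used here, so their build was not checked.

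Samples were grouped by their labels. The methods call them biological samples, without tying each to a mouse, so p-values measure the spread between these samples. The test was run with edgeR 4.0.16 under R 4.3.3: filterByExpr (minimum count 10, minimum total 15), TMM, estimateDisp, glmQLFit and glmQLFTest, with Benjamini-Hochberg adjustment over 15320 genes and a threshold of 0.05. The 95% intervals use the standard error and the degrees of freedom of that fit. Members and lists were chosen with earlier results of these data known. The genes named in each list are the 3 tested genes with the smallest p, and Csf3r was always to be given. Some genes that meet these rules are not reported here. Marker genes, and others beyond that rule, were named after their values were seen.

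Alternatives were the edgeR exact test, DESeq2 1.42.0, other normalizations and filters, a replicate block, removal of the length trend (lowess span 0.3), summed Csf2rb and Csf2rb2, and each sample left out in turn. The scripts were first tested on simulated counts.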

Additional observations from a re-analysis of the deposited data

How the results depend on the processing

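No member passed the threshold under any of the 14 alternatives. For fits lacking 1 sample, only the log2 fold changes of members are given, further below. Among the alternatives that keep all 4 samples, Il34 passed an unadjusted p under 0.05 in edgeR in 3 settings. These were no TMM, upper-quartile normalization and at least 10 counts in every sample. In these settings 3400 of 15320, 3544 of 15320 and 3262 of 13788 genes passed as well. Csf3 passed with the length trend removed, as did 3041 of 15320 genes. The count of all genes that did, 0 in edgeR's quasi-likelihood test, moved to 1170 with the exact test, 1178 with DESeq2 and 2259 without the expression filter, and leaving out single samples gave 0 to 218. With the replicate number as a block, 607 genes passed and the log2 fold change of Csf1r was 0.028. The labels do not say what the numbers share, and deviations of same-numbered samples correlated at 0.099 over genes, so the block is not taken as a pairing. The sign of Csf1r was also positive with upper-quartile normalization (0.043) and with the length trend removed (0.070), and that of Csf2rb negative when summed with its copy (-0.013). With Lyz2 left out of the macrophage markers, chosen after seeing the data, Csf2ra per 1000 CPM of them differed by 3.58 CPM (treated minus saline), against -1.71 CPM with it. The causes were not tested. Over the fits lacking 1 sample, log2 fold changes ranged from -0.11 to 0.12 for Csf1, -0.58 to 0.28 for Csf2, -0.44 to 0.50 for Csf1r, -0.15 to 0.79 for Csf2ra and -0.30 to 0.39 for Csf2rb, in each case on both sides of 0. They kept their sign for Il34 (0.29 to 0.59), Csf3 (-0.27 to -0.12) and Csf2rb2 (-0.54 to -0.10). In these fits the lone sample of a group is assumed to vary like the other group. With 2 samples per group, and for Csf2 with 19 to 40 counts, changes inside the intervals given are not excluded.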
